A study of Mus musculus with 4 samples.

Results

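The abundant nuclear noncoding RNAs described here are 9 genes chosen by name, *Rn7sk*, *Scarna2*, *Malat1*, *Meg3*, *Rian*, *Mirg*, *Snhg11*, *Miat* and *Peg13*, of 56748 genes in the gene table, 37385 of which had at least 1 unique molecular identifier (UMI, the tag by which captured RNA molecules are counted). They were picked as a set of abundant nuclear RNAs and, for *Rn7sk* and *Scarna2*, because of how they differed between stressed and control animals. Their levels and those differences are therefore given as descriptions. Not all were abundant here, from 2.21% of UMIs for *Malat1* to 0.0083% for *Rn7sk* and 0 for *Peg13*. Of the 9 genes, 8 were counted. They held 3.46% of the 217534776 UMIs in 56834 nuclei. Nuclei came from the hippocampus of male mice and were profiled by split-pool single-nucleus RNA sequencing 14 h after the end of repeated social defeat (RSD, labelled Stress), in which an aggressive CD-1 mouse was placed with the animals at night, or from undisturbed controls. The 8 conditions were 2 sets of 4. In the diet set, wild-type C57BL/6 mice received control chow (Control-Vehicle, Stress-Vehicle) or chow with PLX5622, a CSF1R antagonist that removes microglia (Control-PLX5622, Stress-PLX5622). The genotype set held Con-IL-1R1+/+ and Stress-IL-1R1+/+ mice, which lack Cre, and Con-nIL-1R1-/- and Stress-nIL-1R1-/- mice, in which Cre under the Vglut2 promoter deletes the interleukin-1 receptor *Il1r1* in glutamatergic neurons. Each condition was 1 pool of 3 mice that was homogenised, fixed and frozen together before any barcode was added, so that no condition had a biological replicate of its own. The 4 stress and control pairs of the same diet or genotype (Vehicle, PLX5622, IL-1R1+/+ and nIL-1R1-/-) serve as the replicates of the stress comparison. Because the pairs differ in diet or genotype, the comparison takes 1 stress ratio as common to all 4. Whether that ratio differs with PLX5622 or with *Il1r1* deletion was not tested. Beside the pairs stand 2 technical spreads, over the 4 sublibraries that each held nuclei of all 8 pools and over the 6 first-round barcode wells into which each pool was divided. The study lists its wild-type C57BL/6 mice as 5 to 7 weeks old, and the age of the genotype set is not given in the sources used here.

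*Rn7sk* encodes 7SK, a small RNA made by RNA polymerase III that, with the proteins Larp7, Mepce and Hexim1, holds the elongation kinase P-TEFb inactive and thereby limits the release of paused RNA polymerase II. *Scarna2* encodes a guide RNA of the Cajal body, where the RNAs of the spliceosome are chemically modified. *Malat1* is a long RNA of nuclear speckles, sites rich in splicing factors, and is among the RNAs recovered most from nuclei. *Meg3*, *Rian* and *Mirg* are expressed from the maternal copy of the imprinted Dlk1-Dio3 region and carry microRNAs and small nucleolar RNAs in their introns and exons. *Snhg11* hosts small nucleolar RNAs, *Miat* (also called Gomafu) is a neuronal RNA that stays in the nucleus, and *Peg13* is an imprinted RNA inside an intron of *Trappc9*.

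The members chosen for a stress difference are the 2 small structured RNAs, and their sequences are shown because they differ from the long members in length. In GRCm39, *Rn7sk* is a single exon of 331 bases at chr9:78082585-78082915 on the minus strand, and *Scarna2* is a single exon of 414 bases at chr3:108461654-108462067 on the minus strand. Stretches of 300 bases are printed 5′ to 3′ from the reference genome, bases 1 to 300 of *Rn7sk* (chr9:78082616-78082915) and bases 115 to 414 of *Scarna2* (chr3:108461654-108461953), with capitals for GATC in *Rn7sk*, the repeated core of the double-stranded element that Hexim1 binds, and for TGATGA and CTGA in *Scarna2*, the letters of the C and D boxes of guide RNAs of its kind.
Rn7sk: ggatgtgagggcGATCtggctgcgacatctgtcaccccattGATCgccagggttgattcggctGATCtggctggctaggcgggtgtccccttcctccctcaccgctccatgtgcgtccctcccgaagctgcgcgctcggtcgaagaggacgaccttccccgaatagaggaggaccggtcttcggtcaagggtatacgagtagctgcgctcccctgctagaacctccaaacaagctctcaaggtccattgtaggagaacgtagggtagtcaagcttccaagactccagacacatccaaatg
Scarna2: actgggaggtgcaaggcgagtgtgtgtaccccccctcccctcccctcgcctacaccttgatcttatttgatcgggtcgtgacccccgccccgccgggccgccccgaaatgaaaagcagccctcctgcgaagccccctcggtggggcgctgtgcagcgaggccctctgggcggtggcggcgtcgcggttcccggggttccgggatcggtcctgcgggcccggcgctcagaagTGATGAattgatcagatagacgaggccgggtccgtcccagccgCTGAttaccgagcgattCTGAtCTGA
All 3 copies of GATC in *Rn7sk* lie in the printed stretch, and 10.9% of the 31553 annotated transcripts of 300 to 450 bases held it at least as often. *Scarna2* held TGATGA 1 time and CTGA 4 times (3 of them in the printed stretch), against 18.3% and 28.4% of those transcripts with at least as many. The motifs were searched on the RNA strand, GATC reads the same on both strands, and no TGATGA overlaps a CTGA. The longest run of A was 3 in *Rn7sk* and 4 in *Scarna2*. Of 21 stretches of 25 bases taken along *Rn7sk*, at least 1 was found in 31 other 1-kb bins of the genome and at least 3 in 7 of them, with at most 15 in a bin, so reads from copies of 7SK could be counted at *Rn7sk* or lost from it. No stretch of *Scarna2* was found elsewhere.

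The long members other than *Peg13* hold runs of at least 8 A within their annotated spans. Where the mature RNAs end was not examined, so these runs are not shown to be internal to them. *Malat1* lies at chr19:5845717-5853602 (minus strand). Its longest run of A, 12 bases, is shown in capitals with its surroundings at chr19:5845996-5846047, 299 bases from the annotated 3′ end, because it lies near that end.
Malat1 A run: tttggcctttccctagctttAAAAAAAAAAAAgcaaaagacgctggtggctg
*Meg3* (chr12:109506877-109538165), *Rian* (chr12:109570242-109628150) and *Mirg* (chr12:109696198-109715898) follow each other on the plus strand of the Dlk1-Dio3 region. Their spans contain 2, 4 and 14 annotated microRNA genes in that order, and *Rian* also contains 13 small nucleolar RNA genes. *Snhg11* (chr2:158217558-158228071, plus strand) contains 2 small nucleolar RNA genes, and *Miat* lies at chr5:112361094-112377261 on the minus strand. Runs of at least 8 A numbered 10 in *Meg3*, 11 in *Rian*, 3 in *Mirg*, 5 in *Snhg11*, 2 in *Miat* and 1 in *Malat1*, and 0 in *Rn7sk*, *Scarna2* and *Peg13*. Where present they came to 0.12 (*Miat*) to 0.48 (*Snhg11*) per kb of span, introns included. *Rn7sk* and *Scarna2* span less than 1 kb, so their count of 0 does not set them apart beyond length. Genes on the other strand overlapped *Malat1* (Gm37376, 35816 UMIs), *Rian* (*Rtl1*, 1337 UMIs) and *Miat* (Gm26953, 3158 UMIs), and whether the counting used strand is not given in the sources used here, so these members share an uncertainty with their antisense partners.

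Nuclei were grouped by clustering without the 9 members, and classes were named from markers. The 8 classes with at least 50 nuclei in every pool were dentate gyrus granule-like (DG, 9928 nuclei), CA1-like (4889), CA2/3-like (3655), inhibitory neuron-like (INH, 6536), other excitatory neuron-like (1225), oligodendrocyte-like (2047), oligodendrocyte precursor-like (1225) and astrocyte-like nuclei (1375), and 23198 nuclei (40.8%) stayed unnamed. At least 4 markers of each class were more than 2-fold higher in it than elsewhere. The neuronal markers *Syt1*, *Snap25* and *Rbfox3* summed to 4554 to 5945 CPM (UMIs of a gene per 1000000 UMIs) in the 5 neuronal classes and were also present at 1296 CPM in oligodendrocyte-like, 2999 in precursor-like, 2902 in astrocyte-like and 4195 in microglia-like nuclei. Unnamed nuclei held 4906 CPM of them, so the 5 neuronal classes leave out many neurons. The other excitatory class was a single cluster. Clusters of 2549 and 2190 nuclei that scored highest for the same class were among the unnamed. Median depth per nucleus ran from 598 UMIs in Control-PLX5622 and 628 in Stress-PLX5622 to 5012 in Con-nIL-1R1-/-. The targeted *Il1r1* had 295, 107, 122 and 34 UMIs in the DG, CA1, CA2/3 and other excitatory nuclei of Con-IL-1R1+/+, Stress-IL-1R1+/+, Con-nIL-1R1-/- and Stress-nIL-1R1-/- (22.6, 11.8, 5.82 and 4.38 CPM), lower in both nIL-1R1-/- pools. Mitochondrial RNA was 0.120% to 0.525% of UMIs, highest in Stress-PLX5622. No barcode was shared between pools, and 3082 of 54179 well combinations were seen in more than 1 sublibrary. In sums over all nuclei, a change in the make-up of the pool and a change within its nuclei cannot be told apart, so classes are given beside them.

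As a share of UMIs, *Rn7sk* was highest outside neurons. Oligodendrocyte-like nuclei were shallower than INH nuclei (medians of 1112 and 3510.5 UMIs in Control-Vehicle), and the order of classes in *Rn7sk* per nucleus was not compared. Its median over the 8 pools was 739 CPM (range 177 to 1242) in endothelial-like nuclei, 284 CPM (range 69.6 to 713) in oligodendrocyte-like and 136 CPM (range 59.4 to 447) in microglia-like nuclei, with few nuclei behind the endothelial and microglial values (366 and 1095 in all, and 11 microglia-like nuclei in each pool given PLX5622, which depletes them). Endothelial-like nuclei exceeded oligodendrocyte-like nuclei in 8 of 8 pools, and these exceeded microglia-like nuclei in 7 of 8. Precursor-like nuclei had 119 CPM (range 28.6 to 196), astrocyte-like 105 CPM (range 46.6 to 246), INH 85.7 CPM (range 34.8 to 143), DG 72.8 CPM (range 27.2 to 181), other excitatory 71.7 CPM (range 19.9 to 157), CA2/3 62.2 CPM (range 22.01 to 99.2) and CA1 51.7 CPM (range 19.5 to 104). Among these, precursor-like and astrocyte-like nuclei, other excitatory and CA2/3 neurons, and CA2/3 and CA1 neurons each changed places between pools, with the first higher in 4 of 8. The range over pools within every class was wider than the steps between neuronal classes.

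**Figure D1:**
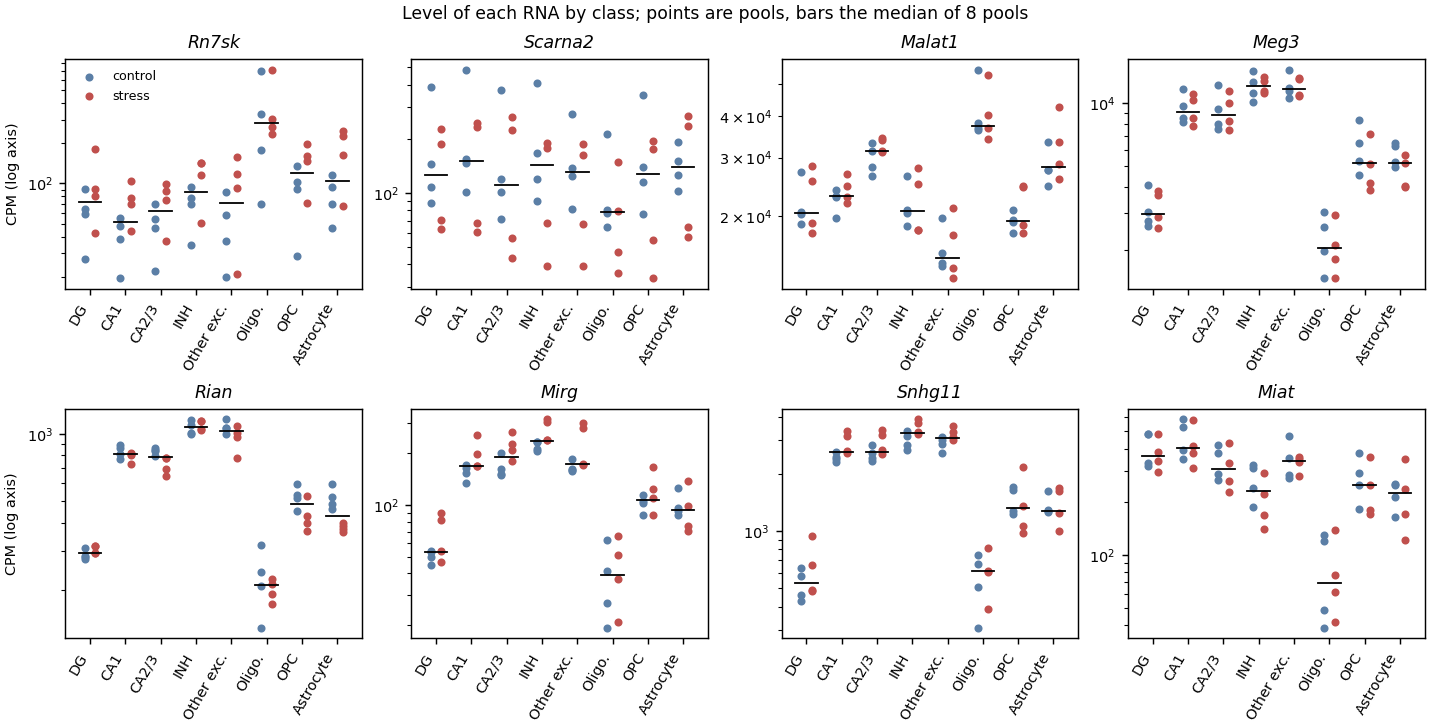
Level of each counted member (CPM, log axis) in each of 8 marker-defined classes, with 1 point for each of the 8 pools (control and stress in different colours) and a bar at the median. *Rn7sk* sits highest in oligodendrocyte-like nuclei (median 284 CPM), where *Meg3* (2038 CPM) and *Miat* (69.4 CPM) are lowest.

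Over all nuclei, control pools held 63.9 CPM in Control-Vehicle, 93.7 in Control-PLX5622, 70.6 in Con-nIL-1R1-/- and 32.8 in Con-IL-1R1+/+. Stress pools held 175 CPM in Stress-Vehicle, 59.99 in Stress-PLX5622, 125 in Stress-nIL-1R1-/- and 120.1 in Stress-IL-1R1+/+. Stress pools had more *Rn7sk* than their controls in the Vehicle, IL-1R1+/+ and nIL-1R1-/- pairs and less in the PLX5622 pair, and the groups overlapped because Stress-PLX5622 lay below Control-Vehicle. The log2 ratio of stress over control was 1.45, interval 1.37 to 1.53, in the Vehicle pair and -0.64, interval -0.82 to -0.47, in the PLX5622 pair. It was 1.87, interval 1.78 to 1.97, in the IL-1R1+/+ pair and 0.83, interval 0.76 to 0.90, in the nIL-1R1-/- pair, where the 95% intervals are exact binomial intervals that cover counting error only. The intervals do not meet 0 in any pair, and the sign of each pair was the same in 4 of 4 sublibraries. The mean over pairs was 0.88 ± 1.10 (SD, n = 4), so the spread between pairs was larger than the mean. No test is given for *Rn7sk* or *Scarna2*, because they were chosen with these ratios in view.

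The value of the PLX5622 pair was below 0 in every class tested, but its interval included 0 in CA1 (-1.21 to 0.86), other excitatory, precursor-like and astrocyte-like nuclei, and in CA1 2 of the 3 sublibraries with a value were higher after stress. In DG the log2 ratios for Vehicle, PLX5622, IL-1R1+/+ and nIL-1R1-/- were 1.61, -1.09, 1.57 and 0.49, and in CA1 1.44, -0.15, 1.86 and 0.51. INH nuclei gave 1.02, -0.89, 2.04 and 0.57. Astrocyte-like nuclei, which had the largest mean over pairs (1.03 ± 1.33, SD, n = 4), gave 1.28, -0.79, 2.40 and 1.22. In oligodendrocyte-like nuclei *Rn7sk* reached 713 CPM in Stress-Vehicle and 697 in Control-PLX5622, and the other 6 pools lay between 69.6 and 334. There the nIL-1R1-/- pair had a log2 ratio of -0.14, interval -0.51 to 0.23. The means of the other classes were 0.64 ± 1.27 in DG, 0.91 ± 0.90 in CA1, 0.66 ± 1.28 in CA2/3, 0.68 ± 1.22 in INH, 0.82 ± 1.31 in other excitatory, 0.56 ± 1.62 in oligodendrocyte-like and 0.80 ± 1.35 in precursor-like nuclei. The SD was larger than the mean in each class except CA1, where they were about equal.

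**Figure D2:**
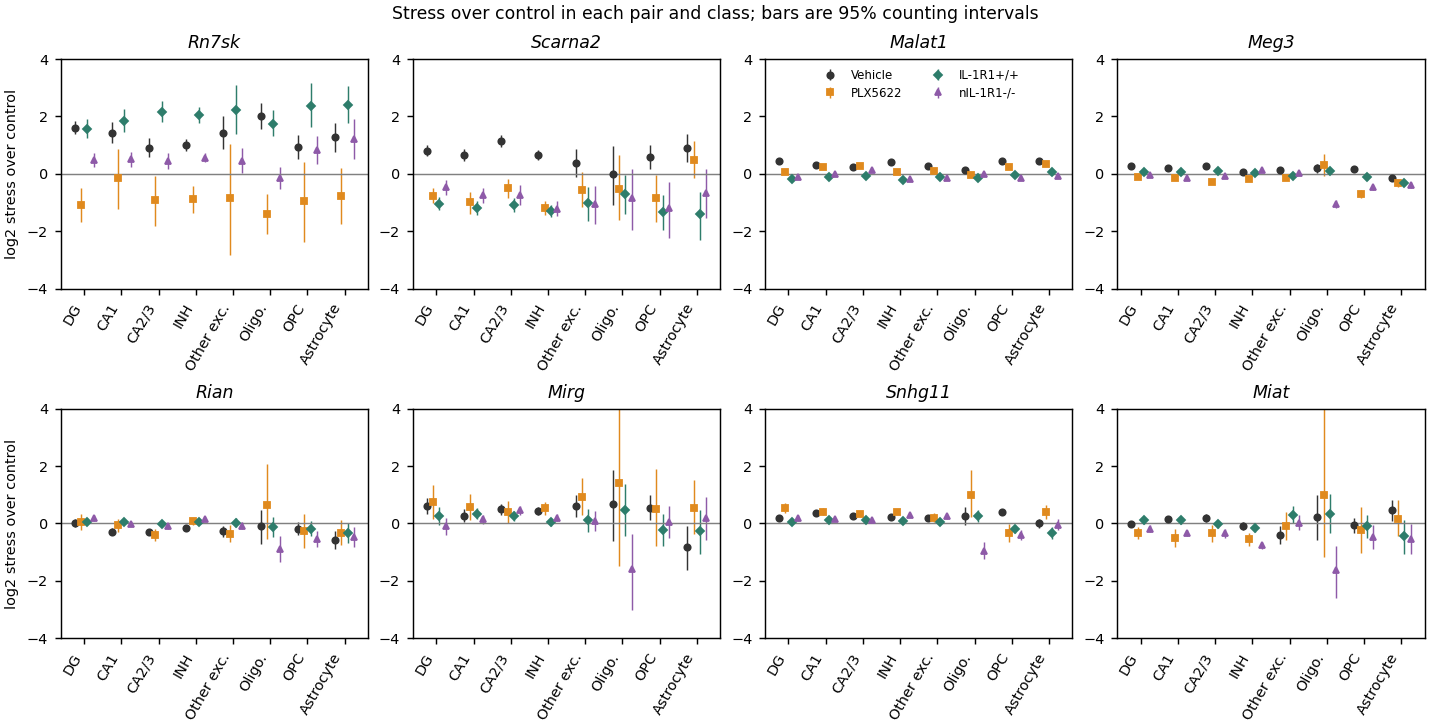
Stress over control log2 ratio of each counted member in each of the 8 classes, with 1 point per pair (Vehicle, PLX5622, IL-1R1+/+, nIL-1R1-/-) and its 95% interval for counting error. *Rn7sk* is below 0 in the PLX5622 pair in every class, with an interval that includes 0 in 4 of the 8 classes, and *Scarna2* is above 0 mainly in the Vehicle pair. *Snhg11* is above 0 in 4 of 4 pairs in the 5 neuronal classes, and *Mirg* in CA1, CA2/3, INH and other excitatory nuclei. *Rian* is below 0 in 4 of 4 pairs in CA2/3, precursor-like and astrocyte-like nuclei, and above 0 in 4 of 4 in DG. *Miat* is below 0 in 4 of 4 pairs in INH and precursor-like nuclei, *Meg3* in astrocyte-like and *Scarna2* in oligodendrocyte-like nuclei. The share of all genes with the same sign in 4 of 4 pairs was not counted, and the classes share the same pools. The intervals of *Mirg* and *Miat* for the PLX5622 pair in oligodendrocyte-like nuclei run past the top of the axis.

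*Rn7sk* was detected in 16.8% of nuclei, a share that rises with depth, so each nucleus was also thinned to 500 UMIs. On that scale it was detected in 2.99% (2.63 to 3.39) of Control-Vehicle and 7.59% (6.94 to 8.28) of Stress-Vehicle nuclei (exact 95% Clopper-Pearson intervals). The shares were 4.34% (3.75 to 4.98) in Control-PLX5622 and 2.18% (1.78 to 2.62) in Stress-PLX5622. They were 1.79% (1.50 to 2.12) in Con-IL-1R1+/+ and 5.73% (5.15 to 6.37) in Stress-IL-1R1+/+, and 3.19% (2.78 to 3.65) in Con-nIL-1R1-/- and 5.57% (5.00 to 6.19) in Stress-nIL-1R1-/-. The intervals of the pools in a pair do not meet in any of the 4 pairs. They take nuclei as independent and leave out the spread between wells and between mice, so they are no test of stress. Without thinning the shares were, in the same order, 16.1% and 20.5%, 7.32% and 4.69%, 12.8% and 27.4%, and 28.7% and 22.4%. The nIL-1R1-/- pair changed direction between these scales, and its control pool was the deepest of the 8. Every cell type is known to make 7SK, so no class gives a background share. Shallower nuclei left out of the thinned shares ranged from 0 in Con-nIL-1R1-/- to 2978 of 7382 in Control-PLX5622. The 100 nuclei with the most *Rn7sk* held 23.9% to 42.5% of its UMIs in a pool, and the highest single nucleus held 5 UMIs in Stress-PLX5622 and 225 in Stress-nIL-1R1-/-.

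The first-round wells of a pool, which are aliquots of the same suspension, differed widely in *Rn7sk*. The lowest, median and highest of 6 wells were 14.4, 28.6 and 142 CPM in Control-Vehicle and 68.96, 156 and 309 CPM in Stress-Vehicle. In Control-PLX5622 they were 46.2, 82.6 and 226 CPM, and in Stress-PLX5622 17.1, 40.5 and 109.7 CPM. For Con-IL-1R1+/+ these were 18.3, 21.9 and 74.6 CPM, and for Stress-IL-1R1+/+ 18.01, 54.3 and 431 CPM. Wells of different pools overlapped in all 4 pairs. Con-nIL-1R1-/- wells ran through 11.4, 48.4 and 153 CPM, and Stress-nIL-1R1-/- wells through 9.72, 29.8 and 365 CPM. In that pair the median well was lower after stress although the pool as a whole was higher. The ratio of the highest to the lowest well was 4.08 to 37.6 over pools (median 8.16), with 431 to 2409 nuclei per well. Taking the median well of each pool in place of the pool, the log2 ratios were 2.45, -1.03, 1.31 and -0.70 for Vehicle, PLX5622, IL-1R1+/+ and nIL-1R1-/-, and their mean was 0.51 ± 1.66 (SD, n = 4), above 0 in 2 of 4 pairs. Leaving out 1 well at a time in the nIL-1R1-/- pair gave log2 ratios from -0.21 to 1.51.

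**Figure D3:**
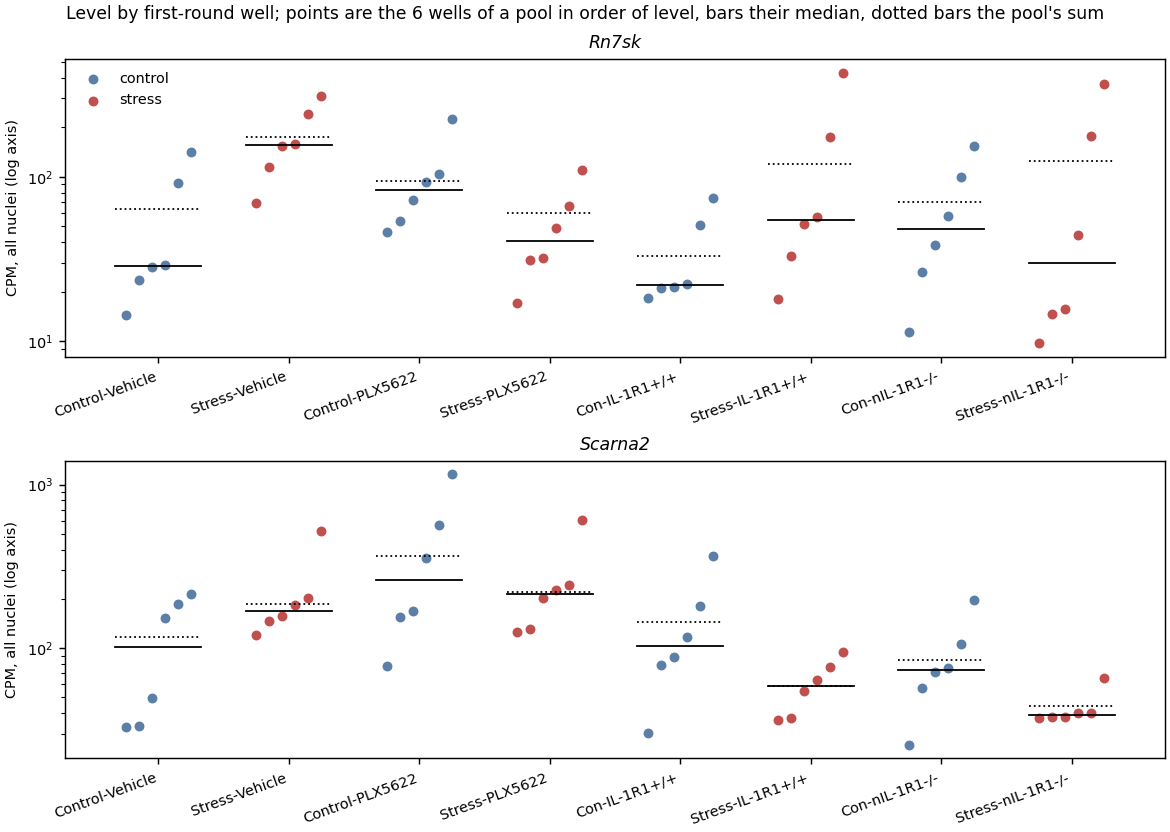
Level of *Rn7sk* and *Scarna2* (CPM, log axis) in each of the 6 first-round wells of each pool, with the level of the whole pool marked. Wells of a pool span up to 37.6-fold for *Rn7sk* and up to 14.8-fold for *Scarna2*, and the wells of control and stress pools overlap in every pair of *Rn7sk*.

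The well differences of *Rn7sk* recurred in all sublibraries, which hold different nuclei of the same wells. The same well was highest in all 4 sublibraries in 6 of 8 pools. Well levels of 2 sublibraries correlated at Pearson's r 0.873 to 0.956 over the 48 wells of all pools, differences between pools included. Between classes within pools the correlation was 0.80 to 0.94, and DG and CA1 nuclei had the same highest well in 8 of 8 pools. The nuclei of 1 well share reverse transcription and handling up to the first pooling, and the part of wells in the pool differences was not tested. Spread over wells was ranked for the 5206 genes with at least 20 CPM in every pool. The measure was the coefficient of variation after subtracting counting variance, as the median over pools. *Rn7sk* was first (74.0%), the ribosomal repeat-bearing *Lars2* the second (71.4%) and *Scarna2* the third (68.4%), against a median of 8.16% for all of them. *Rn7sk* and *Scarna2* did not vary together over wells (r = -0.02 within pools, 48 wells).

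*Rn7sk* also differed between sublibraries, which divide each pool after all wells are mixed. Its level was 88.8, 115, 96.1 and 60.3 CPM in sublibraries 1 to 4. Relative to the mean of its pool it averaged 0.966, 1.31, 1.06 and 0.667, so sublibrary 4 was lowest and sublibrary 2 highest. Reads per UMI were 4 to 5 in sublibraries 1 and 4 and 12 to 18 in sublibraries 2 and 3. Over the 32 combinations of pool and sublibrary, *Rn7sk* correlated with median depth at r = -0.28, and within pools at r = -0.61, where the points share pools and sublibraries. Among nuclei of 1000 to 2000 UMIs, the log2 ratios of stress over control were 1.40, -0.80, 1.91 and 0.61 for Vehicle, PLX5622, IL-1R1+/+ and nIL-1R1-/-. These signs were those of all depths together. In nuclei of 500 to 1000, 2000 to 4000 and 4000 to 8000 UMIs the PLX5622 pair gave -1.01, -0.41 and -0.20. The last interval, -0.63 to 0.23, included 0. In that deepest window the pair gave 0.10 in INH, 0.87 in CA1 and -0.12 in CA2/3, each with an interval that included 0. The Vehicle, IL-1R1+/+ and nIL-1R1-/- pairs stayed above 0 in each window over all classes together. The nIL-1R1-/- interval included 0 in nuclei of 500 to 1000 UMIs (0.43, interval -0.17 to 1.07). In CA1 of that window the Vehicle and nIL-1R1-/- pairs gave -0.33 and -0.44, each with an interval that included 0.

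**Figure D4:**
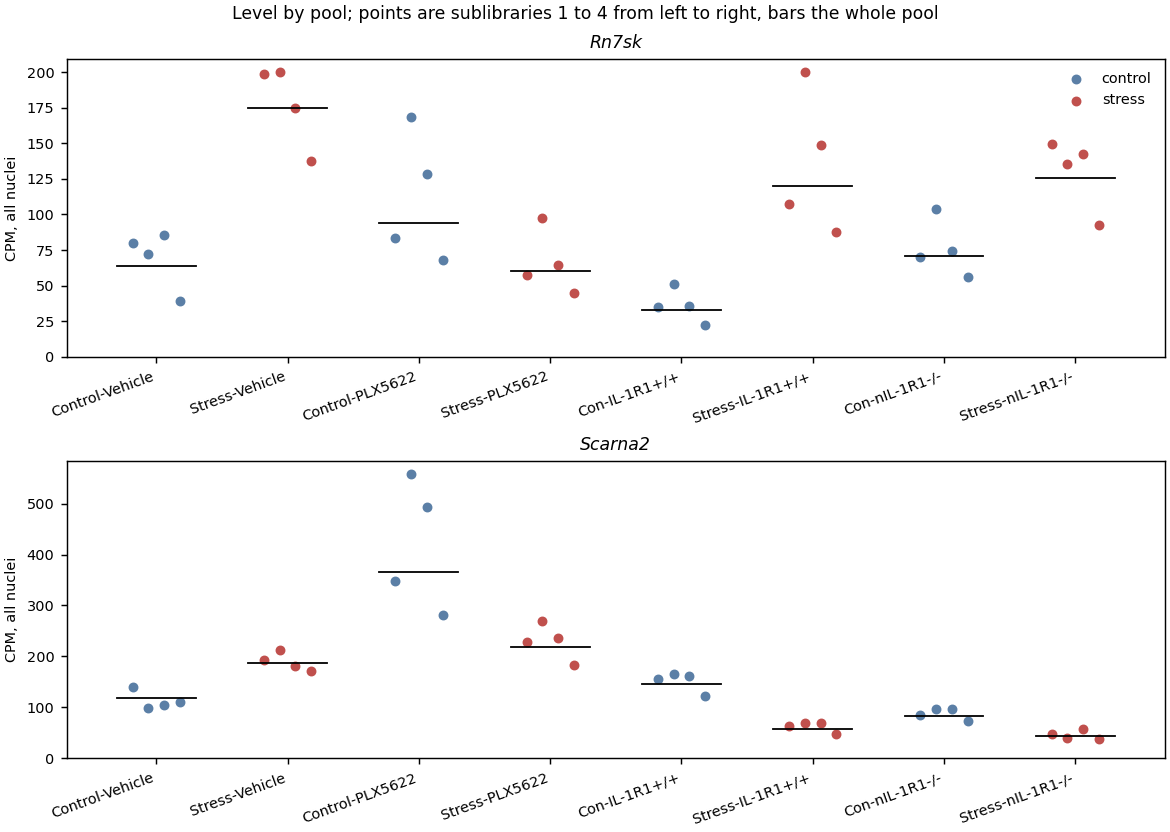
Level of *Rn7sk* and *Scarna2* in all nuclei (CPM) by pool, with 1 point for each of the 4 sublibraries and a bar at the value of the whole pool. For *Rn7sk* a sublibrary lies at 0.57 to 1.50 times the mean of the 4 sublibraries of its pool, and pools lie between 32.8 and 175 CPM. For *Scarna2* pools lie between 44.1 and 366 CPM.

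*Scarna2* had a flatter distribution over classes than *Rn7sk*. Medians over pools ran from 78.1 CPM (range 35.7 to 213) in oligodendrocyte-like nuclei to 151 CPM (range 60.4 to 486) in CA1 and 173 CPM (range 42.05 to 434) in microglia-like nuclei, and INH, astrocyte-like, other excitatory, precursor-like, DG and CA2/3 nuclei lay at 143, 138, 131, 127, 126 and 110.3 CPM. CA2/3 exceeded oligodendrocyte-like nuclei in 8 of 8 pools, while INH exceeded astrocyte-like nuclei in 3 of 8. Over all nuclei, control pools held 118 CPM in Control-Vehicle, 366 in Control-PLX5622, 83.95 in Con-nIL-1R1-/- and 145 in Con-IL-1R1+/+. Stress pools held 187 CPM in Stress-Vehicle, 219 in Stress-PLX5622, 44.1 in Stress-nIL-1R1-/- and 58.4 in Stress-IL-1R1+/+. Control-PLX5622 stood above every other pool, and both genotype stress pools lay below every control pool.

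The log2 ratio of stress over control for *Scarna2* was 0.67, interval 0.60 to 0.73, in the Vehicle pair and -0.74, interval -0.83 to -0.65, in the PLX5622 pair. In the IL-1R1+/+ and nIL-1R1-/- pairs it was -1.32, interval -1.40 to -1.24, and -0.93, interval -1.03 to -0.83. The mean over pairs was -0.58 ± 0.86 (SD, n = 4). Fitted over the 4 pairs, the class values lay between -0.76 in INH and -0.06 in astrocyte-like nuclei. In CA1 the 8 pools held 147 CPM in Control-Vehicle, 486 in Control-PLX5622, 101 in Con-nIL-1R1-/- and 155 in Con-IL-1R1+/+, then 234 CPM in Stress-Vehicle, 244 in Stress-PLX5622, 60.4 in Stress-nIL-1R1-/- and 68.1 in Stress-IL-1R1+/+. The diet and genotype sets differed there by -0.94 in the fitted log2 ratio (genotype minus diet), which is a description and has no test. Wells again spread widely, by 6.48-fold to 14.8-fold between highest and lowest in control pools and 1.75-fold to 4.86-fold in stress pools, with 78.2, 262 and 1158 CPM as the lowest, median and highest well of Control-PLX5622 and 36.5, 58.9 and 94.3 CPM for Stress-IL-1R1+/+. With the median well of each pool, the Vehicle, PLX5622, IL-1R1+/+ and nIL-1R1-/- ratios were 0.74, -0.28, -0.80 and -0.92. The same well was highest in all 4 sublibraries in 6 of 8 pools (r = 0.947 to 0.983 between sublibraries over the 48 wells of all pools, differences between pools included). *Scarna2* and median depth per nucleus correlated at r = -0.71 over the 32 combinations of pool and sublibrary and at -0.43 within pools, and 2 of the 3 pools with the most *Scarna2* were the shallow PLX5622 pools.

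The 6 long members that were counted passed no test between stress and control. Each class was fitted over the 4 pairs with edgeR's quasi-likelihood test on UMIs summed per class and pool, with Benjamini-Hochberg adjustment over all genes of the class. All 6 passed the filter on low counts in every class, and 0 of 6 were called at an adjusted p below 0.05 in any of the 8 classes or in all nuclei. The share of all genes called in either direction was 0.12% in DG, 1.06% in CA1, 0.0784% in CA2/3, 0.00751% in INH, 0.0695% in other excitatory, 0.0318% in oligodendrocyte-like, 0.106% in precursor-like and 0.9% in astrocyte-like nuclei and 0.328% in all nuclei. Few genes of any kind were called, so a count of 0 in 6 does not set the long members apart. The fit takes 1 stress ratio as common to the 4 pairs. A count of 0 therefore does not speak to a stress effect limited to some of the pairs. At an unadjusted p below 0.05, 2 of 6 passed in DG, 2 in CA1, 1 in CA2/3, 3 in INH, 1 in other excitatory, 2 in astrocyte-like and 0 in oligodendrocyte-like, precursor-like and all nuclei. Of all genes tested, 1381 of 11698 had such a p in DG, 1436 of 11075 in CA1, 1701 of 11480 in CA2/3, 1209 of 13311 in INH, 560 of 7192 in other excitatory, 355 of 6286 in oligodendrocyte-like, 570 of 7580 in precursor-like and 655 of 5666 in astrocyte-like nuclei, and 2910 of 19815 in all nuclei. DESeq2 also called 0 of the 6 in every class, with 4 adjusted p-values not returned. The fit that asked whether the stress ratio differed between the diet and genotype sets called 0 of the 6 in any class by edgeR, with 6 of 54 values at an unadjusted p below 0.05. It called 0.171% of all genes in DG, 0.975% in CA1, 0.549% in CA2/3, 0.0139% in other excitatory, 0.0159% in oligodendrocyte-like and 0.0132% in precursor-like nuclei, and 0 genes in INH, astrocyte-like and all nuclei, where 1034, 607 and 1948 genes had an unadjusted p below 0.05. Such a p was held by 959 of 11698 genes in DG, 1193 of 11075 in CA1 and 1408 of 11480 in CA2/3. The counts were 376 of 7192 in other excitatory, 314 of 6286 in oligodendrocyte-like and 403 of 7580 in precursor-like nuclei.

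*Malat1* held 2.21% of all UMIs and was found in 99.9% of nuclei. It was highest in oligodendrocyte-like nuclei, at 37442 CPM (range 34118 to 55287), above CA2/3 in 8 of 8 pools. CA2/3 held 31392 CPM (range 26302 to 34474). Astrocyte-like nuclei had 28104 CPM (range 24602 to 42492), CA1 22956 CPM (range 19702 to 26791), INH 20639.7 CPM (range 18091 to 27859), DG 20398 CPM (range 17826 to 28282) and precursor-like nuclei 19284 CPM (range 17784 to 24666). Other excitatory nuclei were lowest, at 14929.5 CPM (range 12979.6 to 21112), and below precursor-like nuclei in 8 of 8 pools, whereas INH, DG and CA1 overlapped. Over all nuclei *Malat1* was 19670.5 CPM in Control-Vehicle, 27398 in Control-PLX5622, 22188 in Con-nIL-1R1-/- and 21902 in Con-IL-1R1+/+. The stress pools held 26192 CPM in Stress-Vehicle, 29244 in Stress-PLX5622, 21025 in Stress-nIL-1R1-/- and 20748 in Stress-IL-1R1+/+. The 3 highest pools were the shallowest of the 8, Control-PLX5622, Stress-PLX5622 and Stress-Vehicle, and *Malat1* correlated with median depth at r = -0.75 over the 32 combinations of pool and sublibrary and at -0.42 within pools. The log2 ratio of stress over control was 0.41 in the Vehicle pair, 0.09 in the PLX5622 pair and -0.08 and -0.08 in the IL-1R1+/+ and nIL-1R1-/- pairs. Fitted class values lay between -0.01 in oligodendrocyte-like and 0.15 ± 0.15 (SE, adjusted p = 0.781) in astrocyte-like nuclei by edgeR.

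*Meg3* was highest in INH and other excitatory neurons and low in DG and oligodendrocyte-like nuclei. Its median was 12078 CPM (range 10164 to 14335) in INH and 11682 CPM (range 10636 to 14529.5) in other excitatory nuclei, which each led in 4 of 8 pools. CA1 and CA2/3 followed with 9108 CPM (range 7780.4 to 11666) and 8807 CPM (range 7507 to 12233), then precursor-like and astrocyte-like nuclei with 5203 CPM (range 3842 to 8323) and 5200.1 CPM (range 3985 to 6492). DG nuclei, although neurons, held 2950.3 CPM (range 2536 to 4083), below astrocyte-like nuclei in 8 of 8 pools, and oligodendrocyte-like nuclei held 2038 CPM (range 1462 to 3024). The glial classes also held neuronal marker RNA, and its part in their *Meg3* was not tested.

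INH neurons also led for *Rian* and *Mirg*, the next genes of the same region. *Rian* was 1072 CPM (range 994 to 1156) in INH, 1031 CPM (range 781 to 1163) in other excitatory, 812 CPM (range 733 to 891) in CA1, 785 CPM (range 651 to 859) in CA2/3, 483 CPM (range 369 to 593) in precursor-like, 429 CPM (range 363 to 597) in astrocyte-like, 292 CPM (range 276 to 315) in DG and 210.0 CPM (range 135 to 319) in oligodendrocyte-like nuclei. *Mirg* was 235 CPM (range 206 to 315) in INH and 191 CPM (range 150.0 to 266) in CA2/3, higher in INH in 8 of 8 pools, and it was 172 CPM in other excitatory, 169 in CA1, 107 in precursor-like, 93.8 in astrocyte-like, 53.5 in DG and 39.3 in oligodendrocyte-like nuclei. By these medians, all 3 genes of the region were lower in DG than in any other neuronal class.

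The groups of 4 control and 4 stress pools did not overlap for *Rian* in 2 classes and *Mirg* in 1, of 48 combinations of 6 long members and 8 classes. In CA2/3, control pools held 849 CPM in Control-Vehicle, 859 in Control-PLX5622, 835 in Con-nIL-1R1-/- and 793 in Con-IL-1R1+/+, and stress pools held 694 CPM in Stress-Vehicle, 651 in Stress-PLX5622, 778 in Stress-nIL-1R1-/- and 778 in Stress-IL-1R1+/+. Every control pool was above every stress pool, with a fitted log2 ratio of -0.23 ± 0.12 (SE, adjusted p = 0.386) by edgeR. In astrocyte-like nuclei *Rian* was 597 CPM in Control-Vehicle, 486 in Control-PLX5622, 522 in Con-nIL-1R1-/- and 458 in Con-IL-1R1+/+, and 400.0 CPM in Stress-Vehicle, 387 in Stress-PLX5622, 377 in Stress-nIL-1R1-/- and 363 in Stress-IL-1R1+/+, a ratio of -0.47 ± 0.16 (SE, adjusted p = 0.205) by the same test. *Mirg* in INH was 232 CPM in Control-Vehicle, 211 in Control-PLX5622, 206 in Con-nIL-1R1-/- and 231 in Con-IL-1R1+/+, against 315 CPM in Stress-Vehicle, 303 in Stress-PLX5622, 238 in Stress-nIL-1R1-/- and 238 in Stress-IL-1R1+/+, with 0.29 ± 0.10 (SE, adjusted p = 0.374). Groups that do not overlap were found for 4.92% of genes in CA2/3, 5.26% in astrocyte-like nuclei and 3.44% in INH. The share was 4.14% in DG, 4.55% in CA1, 3.13% in other excitatory, 3.61% in both oligodendrocyte-like and precursor-like nuclei and 4.76% in all nuclei. With such shares over all genes, the non-overlapping combinations do not set the long members apart. In other neurons the *Mirg* fits gave 0.32 ± 0.13 (SE, adjusted p = 0.341) in DG, 0.27 ± 0.12 (SE, adjusted p = 0.303) in CA1, 0.37 ± 0.12 (SE, adjusted p = 0.156) in CA2/3 and 0.36 ± 0.16 (SE, adjusted p = 0.586) in other excitatory nuclei, and none passed.

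The fitted stress ratio of *Meg3* lay between -0.05 in CA1 and 0.02 in DG over the neuronal classes. It was -0.34 ± 0.15 (SE, adjusted p = 0.360) in astrocyte-like and -0.30 ± 0.17 (SE, adjusted p = 0.731) in precursor-like nuclei, and *Rian* was -0.30 ± 0.17 (SE, adjusted p = 0.720) in the latter, by edgeR. In all nuclei the pair ratios of *Meg3* were 0.03, -0.39, -0.20 and -0.03 for Vehicle, PLX5622, IL-1R1+/+ and nIL-1R1-/-, those of *Rian* -0.33, -0.24, -0.12 and 0.01, and those of *Mirg* 0.30, 0.42, 0.03 and 0.13. *Rian* correlated with depth at r = 0.68 over the 32 combinations of pool and sublibrary (0.64 within pools), *Mirg* at -0.64 (-0.70) and *Meg3* at -0.57 (0.28 within pools) in all nuclei. Within DG the values within pools were -0.16, -0.34 and -0.79 for *Rian*, *Mirg* and *Meg3*.

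*Snhg11* was highest in neurons other than DG. It was 3289 CPM (range 2659 to 3884) in INH, 3071 CPM (range 2562 to 3587) in other excitatory, 2613 CPM (range 2349.5 to 3385) in CA2/3 and 2598 CPM (range 2306 to 3371) in CA1 nuclei. Precursor-like and astrocyte-like nuclei held 1321 CPM (range 972 to 2161) and 1282 CPM (range 999 to 1681), oligodendrocyte-like 614 CPM (range 309.6 to 812) and DG 535 CPM (range 428 to 936). Other excitatory exceeded CA2/3 nuclei in 8 of 8 pools. In INH the control pools held 3344 CPM in Control-Vehicle, 2827 in Control-PLX5622, 2659 in Con-nIL-1R1-/- and 3152 in Con-IL-1R1+/+. The stress pools held 3884 CPM in Stress-Vehicle, 3696 in Stress-PLX5622, 3244 in Stress-nIL-1R1-/- and 3333 in Stress-IL-1R1+/+, and every stress pool was above its own control. The fitted log2 ratio was 0.23 ± 0.09 (SE, adjusted p = 0.464) in INH, 0.22 ± 0.10 (SE, adjusted p = 0.417) in DG and 0.23 ± 0.11 (SE, adjusted p = 0.350) in CA1 by edgeR. Within pools *Snhg11* correlated with depth at r = 0.64 in all nuclei and at -0.66 in DG.

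*Miat*, unlike *Meg3* and *Snhg11*, was high in DG. It was 403 CPM (range 312 to 587) in CA1 and 363 CPM (range 293 to 486) in DG, higher in CA1 in 8 of 8 pools, and 342 CPM (range 274 to 473) in other excitatory, 308 CPM (range 226 to 430.0) in CA2/3, 248 CPM (range 170.0 to 375) in precursor-like, 230.4 CPM (range 141 to 323) in INH and 225 CPM (range 121 to 349) in astrocyte-like nuclei. INH and astrocyte-like nuclei each led in 4 of 8 pools. Oligodendrocyte-like nuclei were lowest, at 69.4 CPM (range 38.7 to 139). In INH the controls held 310.3 CPM in Control-Vehicle, 323 in Control-PLX5622, 240.2 in Con-nIL-1R1-/- and 186 in Con-IL-1R1+/+, and stress pools held 292 CPM in Stress-Vehicle, 221 in Stress-PLX5622, 141 in Stress-nIL-1R1-/- and 168 in Stress-IL-1R1+/+. Each stress pool was below its own control, most in the PLX5622 and nIL-1R1-/- pairs (-0.55 and -0.77) and least in the Vehicle and IL-1R1+/+ pairs (-0.09 and -0.14), and the fit gave -0.39 ± 0.12 (SE, adjusted p = 0.297) by edgeR. *Miat* and depth correlated within pools at r = -0.84 in all nuclei and at -0.66 in DG.

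*Peg13* had 0 UMIs in every pool, which allows a level of up to 0.0138 CPM over all nuclei (3 counts of the total, counting error only). In GENCODE it is a single exon of 4725 bases at chr15:72677449-72682173 on the minus strand, within an intron of *Trappc9* (chr15:72461467-72934559, same strand), and *Trappc9* had 45255 UMIs. A count of 0 for a gene inside another of the same strand says only that no UMI was assigned to it, and its expression cannot be told from that of *Trappc9* in these tables.

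Well-to-well spread was larger for *Rn7sk* than for any long member in every pool. The ratio of highest to lowest well in a pool was 1.38 to 2.68 for *Malat1*, 1.15 to 1.49 for *Meg3*, 1.08 to 1.68 for *Rian*, 1.32 to 1.72 for *Mirg*, 1.29 to 1.72 for *Snhg11* and 1.45 to 3.09 for *Miat*, against 4.08 to 37.6 for *Rn7sk*. *Scarna2* ran from 1.75 to 14.8, and its lowest pools, Stress-nIL-1R1-/- (1.75) and Stress-IL-1R1+/+ (2.58), were within the range of the long members. The median coefficient of variation over wells, again after subtracting counting variance, was 23.6% for *Miat*, 19.97% for *Malat1*, 12.4% for *Mirg*, 11.9% for *Snhg11*, 8.09% for *Meg3* and 4.11% for *Rian*. *Rian* ranked 4658 among the 5206 genes, and *Meg3* 2640, near the median gene. The highest well was the same in all 4 sublibraries in 7 of 8 pools for *Miat*, 5 for *Snhg11*, 4 for *Malat1*, 2 for *Rian* and *Mirg* and 1 for *Meg3*.

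**Figure D5:**
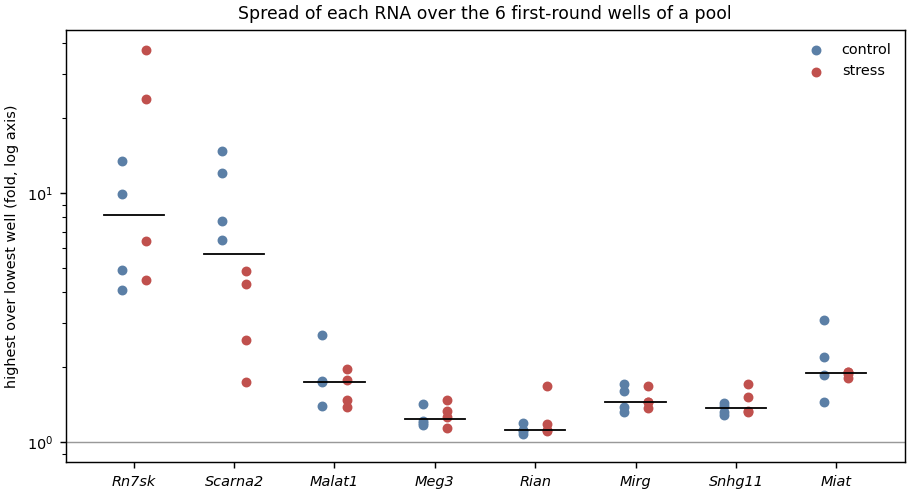
Ratio of the highest to the lowest first-round well (log axis) for each counted member, with 1 point per pool and a bar at the median. Every point of *Rn7sk* (4.08 to 37.6) lies above every point of the 6 long members (1.08 to 3.09), and *Scarna2* (median 5.67) has 2 pools, at 1.75 and 2.58, within their range.

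Diet and genotype were compared 1 pool against 1, with no replicate and no test. For *Rn7sk* the log2 ratio of PLX5622 over Vehicle was 0.55, interval 0.43 to 0.67, in controls and -1.54, interval -1.69 to -1.40, after stress. The ratio of nIL-1R1-/- over IL-1R1+/+ was 1.11, interval 1.01 to 1.20, in controls and 0.06, interval -0.01 to 0.13, after stress. *Rn7sk* thus differed between the genotype pools without stress, and after stress the interval of their difference included 0. *Scarna2* was higher with PLX5622 by a log2 ratio of 1.64, interval 1.57 to 1.70, in controls and by 0.23, interval 0.14 to 0.32, after stress, and its nIL-1R1-/- over IL-1R1+/+ ratios were -0.79 and -0.41. *Malat1* was 0.48 and 0.16 for PLX5622 over Vehicle and 0.02 and 0.02 for genotype. *Meg3*, *Rian*, *Mirg*, *Snhg11* and *Miat* had diet ratios in controls of 0.29, -0.15, 0.00, -0.15 and 0.01, and after stress of -0.13, -0.07, 0.12, -0.04 and -0.40. Their genotype ratios in controls were -0.18, -0.06, -0.05, -0.20 and 0.18. The PLX5622 pools were shallower than the Vehicle pools, and levels were therefore also read within windows of depth, in nuclei of 500 to 1000, 1000 to 2000, 2000 to 4000 and 4000 to 8000 UMIs. In that order *Scarna2* was 348, 379, 355 and 353 CPM in Control-PLX5622, against 90.4, 97.2, 109 and 116 CPM in Control-Vehicle. In the same windows *Malat1* was 32385, 25122, 22310 and 21669 CPM in Control-PLX5622, against 21172, 20875, 19265 and 19074 CPM in Control-Vehicle. In controls both were higher with PLX5622 in all 4 windows, and the gap in *Malat1* was widest in the shallowest nuclei. In stress pools *Scarna2* was 239, 218, 201 and 196 CPM in Stress-PLX5622, against 233, 225, 173 and 160 CPM in Stress-Vehicle. In nuclei of 500 to 1000 and 1000 to 2000 UMIs these pools were close, and no interval was computed for the difference, so no direction is given there. *Malat1* was 29761, 28877, 27915 and 28356 CPM in Stress-PLX5622, against 28376, 26431, 25808.5 and 25554 CPM in Stress-Vehicle. That gap was narrowest in the shallowest nuclei.

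The proteins and neighbours of these RNAs were read from lists in the same fits. Of a list for the 7SK particle and P-TEFb (among them *Larp7*, *Mepce*, *Hexim1*, *Hexim2*, *Cdk9*, *Ccnt1*, *Ccnt2*, *Aff4* and *Ell2*), 10 of 10 were tested in all nuclei and 5 to 9 per class, and 0 were called in either direction by edgeR or DESeq2, with 1 (in CA2/3) at an unadjusted p below 0.05 over the classes. Their median log2 ratio in all nuclei was 0.10, against -0.0027 for all genes. *Larp7*, which binds the 3′ end of 7SK, was 0.39 (adjusted p = 0.397 by edgeR). Of the Dlk1-Dio3 neighbours, 4 of 5 in the table were tested in all nuclei, 0 were called by either tool in any class and 1 had an unadjusted p below 0.05 (all nuclei), with *Dlk1* at -1.16 (adjusted p = 0.241). *Trappc9* and the other 4 genes around *Peg13* gave 0 calls by either tool, with 2 in CA1 and 1 in CA2/3 at an unadjusted p below 0.05, *Trappc9* being -0.01 in all nuclei. Of 21 other nuclear long noncoding RNAs, *Mir99ahg*, the host of several microRNAs, was lower in CA1 at -0.43 (adjusted p = 0.0481; medians 699 CPM in controls and 516 after stress), and no other was called by edgeR in any class, with 1 to 5 per class at an unadjusted p below 0.05. DESeq2 called 0 of them in CA1, 1 in CA2/3 and 2 in all nuclei. *Neat1*, the RNA of paraspeckles, was 196 CPM in Stress-PLX5622 and 12.5 to 46.9 in the other pools. Of 173 other small structured RNAs, 4 reached the test in all nuclei (*Rmrp*, *Rpph1*, *Snord3a* and *Snord89*) and at most 1 in a class, and 0 were called by either tool, with *Rpph1* in INH the only value at an unadjusted p below 0.05 (log2 0.89).

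RNA-quality lists moved in part with stress. Mitochondrial genes had median log2 ratios of 0.11 to 0.98 over the classes and 0.40 in all nuclei, and at most 1 gene per class was called. These were *mt-Rnr2* in CA1 (0.53, adjusted p = 0.0306, 7 tested) and other excitatory nuclei (0.68, adjusted p = 0.0139, 2 tested) and *mt-Rnr1* in precursor-like nuclei (0.95, adjusted p = 0.0455, 3 tested), all higher by edgeR. The ribosomal RNA repeat *Rn18s-rs5* was called higher in CA1 (0.53, adjusted p = 0.00765) and CA2/3 (0.74, adjusted p = 0.0053), *Lars2*, the other repeat gene, was not called, and 0 ribosomal protein genes were called by edgeR or DESeq2, with 0 to 13 per class at an unadjusted p below 0.05. Repeat RNA was 1.24% of UMIs in Control-Vehicle and 1.52% in Stress-Vehicle, and 1.82% and 2.45% in the PLX5622 pair. It was 0.767% and 1.02% in the IL-1R1+/+ pair and 0.548% and 0.859% in the nIL-1R1-/- pair. Repeat RNA was thus higher after stress in each pair, whereas *Rn7sk* was lower in the PLX5622 pair and higher in the others. Mitochondrial RNA was higher after stress in each pair except IL-1R1+/+ (0.274% and 0.208%). *mt-Rnr1*, *mt-Rnr2* and *Rn18s-rs5* are ribosomal RNAs, and their part in the *Rn7sk* ratios was not tested.

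By Pearson's r of deviations from the class mean over 64 combinations of class and pool, on log2(CPM + 1), the genes most like *Rn7sk* among 4339 were *Sik3* (0.52), *Cttn* (0.51) and *Xxylt1* (0.50). *Malat1* was followed by *Arglu1* (0.74), *Rbm25* (0.73) and *Kdm4b* (0.72). Genes like *Meg3* included *Galnt17* (0.81) and *Miat* (0.81). The 64 points share 8 pools and their depths, so these values describe likeness in these libraries and have no p.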

How the data were processed

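Hippocampal nuclei of 8 pools were counted by the authors with the Parse Biosciences pipeline. Per the labels, the build was mm39, and Seurat 4.1.1 is among the tools listed. The deposited matrices hold raw counts, whole UMIs per nucleus and gene, and deposited cell tables give each nucleus's sublibrary and barcode wells. No other version of the authors' aligner is given in the sources used here. Members and lists were chosen with earlier results of these data known.

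Nuclei with more than 20% mitochondrial UMIs were left out, as in the study, which kept 56834 of 57350. Nuclei were clustered without the members (2000 variable genes, 30 principal components, 15 neighbours, Leiden resolution 1, Python 3.11.15, leidenalg 0.10.2) and clusters named from markers where at least 3 markers were at least 2-fold higher, their mean log2 fold was at least 1 and led the next class by at least 0.5, no other class had more markers among the 10 leading genes and, for non-neuronal names, median depth was at most 1.5 times that of their pools. No doublet caller was run, and leaving out the deepest 5% of nuclei was an alternative. Levels are CPM of summed UMIs. Depth was 7534594 to 58081835 UMIs per pool, and intervals and limits cover counting error only. Because 1 pool is 1 sample, p-values come only from the 4 pairs, fitted with edgeR 4.0.16 in R 4.3.3 (quasi-likelihood, TMM, filterByExpr, pair as a term). The test was also tried on simulated counts. These had the same dispersion (spread between pools) for every gene and no difference between pairs, so that trial does not cover the pair differences seen here.

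The pairs share diet or genotype by their labels only. Deviations of the paired pools from their group means correlated at 0.66 (Vehicle), 0.18 (PLX5622), 0.42 (IL-1R1+/+) and 0.32 (nIL-1R1-/-) over 5206 genes. Named genes were all members, the called genes of each list with the largest change (up to 3 per class), and the 3 genes most like *Rn7sk*, *Malat1* and *Meg3* (at least 20 CPM in every class tested). Values of 2 genes that these rules or lists include are not reported here. The alternatives were DESeq2 1.42.0, no TMM factor, no low-count filter, no pair term, members out of the library sizes, single sublibraries, a depth window, thinning, no mitochondrial filter, finer clusters and each pair left out. Sequences and positions are from GRCm39 with GENCODE, whose gene IDs matched all 9 members.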

Additional observations from a re-analysis of the deposited data

Results flagged for a closer look

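Each of 144 groups of 4 pools (control or stress, for each member and class) was examined for a single pool far from the rest, by the gap to the nearest other pool over the whole range of the group. Dixon's 95% critical value was passed in 6 groups, where chance alone would pass about 5% of independent groups. The groups are not independent, because classes share the same pools. *Rn7sk* and *Scarna2* were also chosen with their pool values in view. The rule therefore only picks values for a closer look and is no test.

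*Scarna2* in Control-PLX5622 stood apart in 3 classes. It was 486 CPM in CA1 with the next control at 155, 375 CPM in CA2/3 with the next at 119.7, and 213 CPM in oligodendrocyte-like nuclei with the next at 80.2. Control-PLX5622 was the shallowest pool (median 598 UMIs per nucleus), and its highest first-round well held 1158 CPM of *Scarna2* against a median well of 262. *Rn7sk* in oligodendrocyte-like nuclei of Stress-Vehicle was 713 CPM, with the next stress pool at 304.

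*Malat1* was 55287 CPM in oligodendrocyte-like nuclei of Control-PLX5622, with the next control at 38016. *Snhg11* was 1618 CPM in astrocyte-like nuclei of Control-Vehicle, with the next control at 1291. The part of depth, of wells or of the 3 pooled mice in these values was not tested.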

How the results depend on the processing

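None of the 955 values of the 6 long members under 18 alternatives per class was called, 98 had the other sign and 42 moved by more than 1 SD over pairs. *Rn7sk* stayed above 0 in 157 of 157 fitted values and *Scarna2* below 0 in 149 of 158. Both were chosen for their stress ratios and these fits reuse the same pools, so the counts are a description only. Leaving out each pair in turn gave *Rn7sk* 0.52 to 1.38 and *Scarna2* -1.03 to -0.41 in all nuclei, and the ends of the *Rn7sk* range are the fits without the IL-1R1+/+ and without the PLX5622 pair. The number of genes called over the 8 classes was 207. It was 837 with no low-count filter, and 141, 46, 17 and 54 in sublibraries 1, 2, 3 and 4 alone. In nuclei of 1000 to 2000 UMIs it was 87, and after thinning to 500 UMIs 98. With a pair left out it was 48 to 228, lowest without the Vehicle pair. With no replicate block, that is without the pairing, it was 1. The single-sublibrary and thinned sums hold fewer UMIs than the main sums. The cause of these changes was not tested. Alternatives of the fit on diet against genotype sets were not run. For the share of nuclei with *Rn7sk*, the log2 ratios of stress over control after thinning to 500 UMIs were 1.34, -0.996, 1.68 and 0.80 for Vehicle, PLX5622, IL-1R1+/+ and nIL-1R1-/-. Without thinning they were 0.34, -0.64, 1.09 and -0.36, the last with the other sign, and after thinning to 1000 UMIs the PLX5622 and nIL-1R1-/- values were -0.65 and 0.49. First-round wells were examined after seeing the data. With the median well of each pool, *Rn7sk* gave 2.45, -1.03, 1.31 and -0.70, the last with the other sign, and *Scarna2* gave 0.74, -0.28 and -0.80 for Vehicle, PLX5622 and IL-1R1+/+. Leaving out the highest well of each pool gave *Rn7sk* 1.82 in the Vehicle, 1.51 in the IL-1R1+/+ and 0.47 in the nIL-1R1-/- pair, and *Scarna2* -0.32, -0.85 and -0.65 in the PLX5622, IL-1R1+/+ and nIL-1R1-/- pairs. *Rn7sk* had 5 to 155 UMIs per pool in other excitatory and oligodendrocyte-like nuclei.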
